A study of Homo sapiens with 4 samples.

Results

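The genes studied here encode the adhesion receptors and the structural matrix proteins of the human embryonic stem cell line H9. A gene was a member if its name in the deposited table was that of an integrin chain (ITGA or ITGB followed by letters or digits, without the ITGB1BP and ITGBL names), a laminin chain (LAMA, LAMB or LAMC and a digit) or a collagen chain (COL, a number, A and a digit), or if it was FN1, VTN, NID1 or NID2. The rule took 87 of the 60671 genes in the table. They comprised 26 integrin chains (18 α and 8 β), 12 laminin chains, 44 collagen chains and the 4 matrix glycoproteins. The remaining match, ITGB3BP, encodes a centromere protein and is no integrin, so it was carried in the counts and described no further. The rule used names and no measured value.

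RNA was measured in 4 libraries of poly(A)+ RNA from H9 cells, with 2 libraries in each of 2 groups. The control group is labelled only as control, and according to the study the comparison line was H9 transfected with the empty editing vector. The second group, KO+OE, carries CRISPR/Cas9 edits in NUDT21, the gene for the mRNA 3′ processing factor CFIm25, and also overexpresses 3Flag-tagged CFIm25. According to the study, this group derives from a single edited clone, made a shortened CFIm25 at a low level, and received the tagged protein from a lentivirus with an EF1 promoter. Both groups were grown without feeder cells in mTeSR medium on plates coated with Matrigel, a basement membrane extract that supplies laminin, type IV collagen and nidogen as protein but no human RNA. The edited cells without the tagged protein were not analysed here, so the comparison is of re-expressing cells with controls and does not show the effect of losing CFIm25.

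Cells attach to the matrix through integrins, which are pairs of one α and one β chain that span the membrane and link matrix proteins outside to talin, kindlin and actin inside. The basement membrane under an epithelium is built from a laminin network, in which every molecule joins one α, one β and one γ chain, and from a type IV collagen network, with nidogens and the proteoglycan perlecan connecting them. Human pluripotent stem cells grow as an epithelial sheet. They are commonly maintained on laminin, which they bind mainly through α6β1, or on vitronectin, which they bind through αVβ5. Fibrillar collagens such as types I, II and III form the cables of connective tissue, while fibronectin is the ligand of α5β1.

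Values were TPM, the share of all transcripts after scaling for length, so levels can be set side by side between genes. Across libraries, 12179 to 12332 genes reached 1 TPM, and mitochondrial genes held 21.0 to 22.1% of the total, with KO+OE (21.6% and 22.1%) above control (21.0% and 21.1%). NUDT21 itself was at 160.67 and 152.2 TPM across control libraries against 162.09 and 156.6 TPM across KO+OE libraries. These values overlap, and since an edit need not lower the RNA and the tagged copy adds to it, the gene does not check the labels. All 10 pluripotency markers were above 1 TPM, with POU5F1, the core pluripotency factor, between 2164 and 2212 TPM. Of 10 fibroblast markers, 4 were above 1 TPM: THY1, which pluripotent cells also carry, at 1228 to 1352 TPM, PDGFRB at 11.59 and 12.18 TPM in controls versus 14.96 and 12.40 TPM in KO+OE, TWIST2 at 2.51 to 3.52 TPM and TWIST1 at 0.80 to 1.60 TPM. LUM, FAP and PRRX1 were listed at 0 in each library, and DCN did not exceed 0.08 TPM. The endoderm factor SOX17, the leukocyte gene PTPRC and the trophoblast genes CGA and ELF5 were listed at 0 as well. Of the 10 markers of primitive and parietal endoderm, 5 were above 1 TPM, 4 of them members (LAMA1, LAMB1, COL4A1 and COL4A2) and the other GATA6, at 4.35 to 8.39 TPM. In bulk RNA, fewer cells of a type and less RNA per cell cannot be told apart.

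H9 cells held RNA for a restricted part of the set. A mean of at least 1 TPM over the 4 libraries was reached by 49 of the 87 members, and 24 of those reached 10 TPM. By family these were 11 of 26 integrins, 8 of 12 laminins, 26 of 44 collagens, 3 of the 4 glycoproteins, and ITGB3BP. COL19A1 and the leukocyte integrin ITGAD were listed at 0 in all 4 libraries. The summed level of all members was 1279 and 1278 TPM in controls versus 1295 and 1274 TPM in KO+OE, so the control sums lay within the range of the KO+OE sums.

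**Figure D1:**
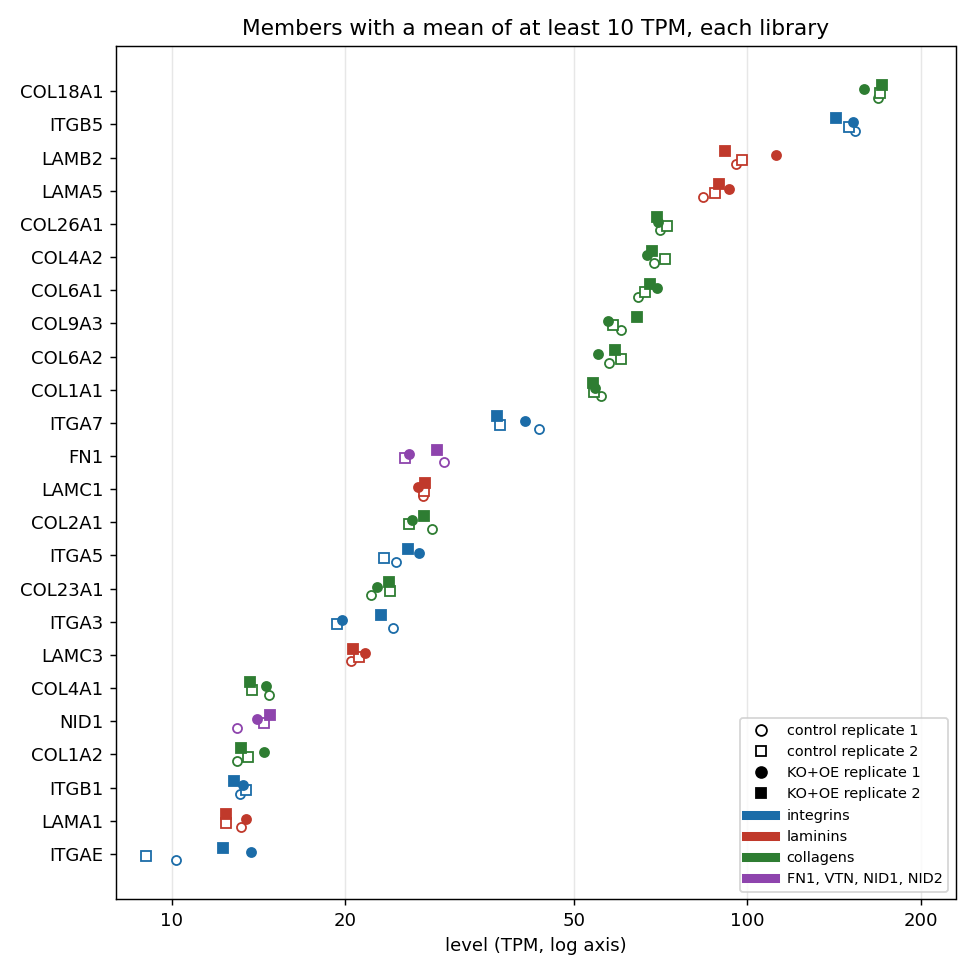
Level in TPM (log axis) of the 24 members with a mean of at least 10 TPM, one row a gene, with open symbols for the control libraries, filled symbols for KO+OE, circles for replicate 1 and squares for replicate 2. COL18A1 and ITGB5 stand above 140 TPM in every library, and ITGAE at the bottom has the widest gap between the open and the filled symbols.

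Type IV collagen is where gene position and level can be set side by side. Its 6 chains, the network formers of basement membranes, are encoded as 3 pairs of neighbours that are transcribed in opposite directions from between them, and among the members with a RefSeq promoter window no other pair had start sites within 1000 bases. In RefSeq (GRCh38.p14), the starts of COL4A1 and COL4A2 on chromosome 13 are 127 bases apart, those of COL4A3 and COL4A4 on chromosome 2 are 419 apart, and those of COL4A5 and COL4A6 on chromosome X are 380 apart. The start of COL4A4 depends on the transcript taken, and the 5′ end of its whole gene lies 136 bases from that of COL4A3. The 300-base windows around these starts are shown because each window reaches into that of its partner, sharing 226, 82 and 121 bases in the 3 pairs. Each is written 5′ to 3′ on the strand of its own gene, with 250 bases before the annotated start followed by 50 bases after it, and capitals mark GGGCGG, the core of the GC box, and CCAAT, on either strand.
COL4A1, chr13:110307108-110307407, minus strand: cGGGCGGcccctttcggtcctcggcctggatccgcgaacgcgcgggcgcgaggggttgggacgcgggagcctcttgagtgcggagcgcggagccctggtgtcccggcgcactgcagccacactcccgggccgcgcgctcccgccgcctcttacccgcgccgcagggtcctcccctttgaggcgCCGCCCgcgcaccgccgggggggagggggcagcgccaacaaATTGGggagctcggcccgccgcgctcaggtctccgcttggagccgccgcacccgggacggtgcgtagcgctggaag
COL4A2, chr13:110307034-110307333, plus strand: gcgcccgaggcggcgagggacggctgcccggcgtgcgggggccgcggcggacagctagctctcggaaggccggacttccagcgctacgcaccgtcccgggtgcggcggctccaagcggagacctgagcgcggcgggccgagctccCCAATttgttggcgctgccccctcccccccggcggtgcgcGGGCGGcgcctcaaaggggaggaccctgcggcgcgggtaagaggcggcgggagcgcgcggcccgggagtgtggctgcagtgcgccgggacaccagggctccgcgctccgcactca
COL4A3, chr2:227164374-227164673, plus strand: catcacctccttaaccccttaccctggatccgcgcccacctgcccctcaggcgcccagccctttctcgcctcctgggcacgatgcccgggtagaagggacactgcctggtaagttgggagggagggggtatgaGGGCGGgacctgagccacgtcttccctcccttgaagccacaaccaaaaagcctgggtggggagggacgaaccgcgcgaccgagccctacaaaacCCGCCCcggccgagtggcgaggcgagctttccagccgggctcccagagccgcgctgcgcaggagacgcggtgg
COL4A4, chr2:227164156-227164455, minus strand: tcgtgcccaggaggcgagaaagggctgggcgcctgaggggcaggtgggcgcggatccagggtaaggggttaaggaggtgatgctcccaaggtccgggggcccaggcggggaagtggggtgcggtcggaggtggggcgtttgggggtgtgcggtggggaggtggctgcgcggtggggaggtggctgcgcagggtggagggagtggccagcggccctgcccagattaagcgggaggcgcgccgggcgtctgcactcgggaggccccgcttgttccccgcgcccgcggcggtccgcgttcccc
COL4A5, chrX:108439588-108439887, plus strand: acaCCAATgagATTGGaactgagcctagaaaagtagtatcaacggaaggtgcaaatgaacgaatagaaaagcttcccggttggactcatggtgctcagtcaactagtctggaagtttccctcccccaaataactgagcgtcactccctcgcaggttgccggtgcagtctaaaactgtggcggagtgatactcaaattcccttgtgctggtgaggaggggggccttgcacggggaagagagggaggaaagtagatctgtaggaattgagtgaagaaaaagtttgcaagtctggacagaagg
COL4A6, chrX:108439409-108439708, minus strand: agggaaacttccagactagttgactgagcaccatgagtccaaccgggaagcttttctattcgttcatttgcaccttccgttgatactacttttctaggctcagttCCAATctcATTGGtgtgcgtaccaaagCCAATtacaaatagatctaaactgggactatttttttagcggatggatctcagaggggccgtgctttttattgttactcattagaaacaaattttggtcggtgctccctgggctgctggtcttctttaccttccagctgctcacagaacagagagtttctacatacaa

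The windows differ in composition. GC content was 76.7% for COL4A1 and 77.7% for COL4A2, 67.7% for COL4A3 and 74.0% for COL4A4, and 49.3% for COL4A5 and 43.7% for COL4A6. GGGCGG occurred 2 times in the COL4A1 window, once in that of COL4A2, 2 times in that of COL4A3, and not at all in the other 3. CCAAT occurred once in each window of the COL4A1 and COL4A2 pair, 2 times in that of COL4A5 and 3 times in that of COL4A6. TATAAA, the TATA box core, was in none of the 6. Over all 27305 promoter windows of the table, 44.6% held GGGCGG, 35.7% CCAAT and 12.0% TATAAA on either strand, and over the 63 members with a window the shares were 57.1%, 28.6% and 9.52%. These matches describe letters in the window and do not show that a factor binds.

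The 3 pairs were at 3 levels in H9 cells. COL4A2 was at 68.77 and 71.85 TPM across control libraries against 67.05 and 68.42 TPM across KO+OE libraries. COL4A1, which starts 127 bases away, was at 14.78 and 13.76 TPM in controls versus 14.60 and 13.70 TPM in KO+OE. COL4A2 was therefore 4.59 to 5.22 times as high as COL4A1 in each library, although the common type IV molecule holds more α1 than α2 chains. On the X chromosome, COL4A6 was at 7.57, 8.51, 8.52 and 8.73 TPM in control replicates 1 and 2 and KO+OE replicates 1 and 2, and COL4A5 was at 6.09, 4.26, 3.67 and 4.71 TPM in the same order. Their levels were thus closer, with COL4A6 1.24 to 2.32 times COL4A5. COL4A3 and COL4A4, chains of the mature kidney glomerulus, stayed between 0.19 and 0.60 TPM. Between groups, none of these chains passed the test: the log2 fold changes on log2(TPM + 1) were -0.05 for COL4A2, -0.01 for COL4A1, 0.09 for COL4A6 and -0.24 for COL4A5.

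Among the receptors, the β chains were dominated by ITGB5, the β5 chain. It was at 153.93 and 150.35 TPM across control libraries against 152.71 and 142.74 TPM across KO+OE libraries, and held 87.9 to 88.8% of all β chain RNA. ITGB5 lies at chr3:124761948-124901418 (RefSeq, GRCh38.p14). ITGB1, the β1 chain that pairs with the largest number of α chains, was at 13.12 and 13.44 TPM in controls versus 13.32 and 12.85 TPM in KO+OE. The 4 values of each gene overlap between groups, and ITGB5 stood 11.1 to 11.7 times above ITGB1 in each library. ITGB4, the hemidesmosome chain that pairs with α6, was the only other β chain above 1 TPM, at 5.55 and 4.82 TPM across control libraries against 5.94 and 5.87 TPM across KO+OE libraries. ITGB8, ITGB2, ITGB7, ITGB3 and ITGB6 were each under 1 TPM in all libraries.

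The α chains that bind laminin were all present. ITGA7 was the highest α chain, at 43.45 and 37.22 TPM in controls versus 41.09 and 36.71 TPM in KO+OE, which is 31.7 to 36.5% of all α chain RNA. ITGA3 was at 24.22 and 19.36 TPM across control libraries against 19.74 and 23.11 TPM across KO+OE libraries. ITGA6 was at 3.67, 2.18, 3.07 and 2.83 TPM in the same order of libraries. In none of the 3 genes did the groups separate, and ITGA7 stood 11.8 to 17.1 times above ITGA6. ITGA5, which with β1 forms the fibronectin receptor, was at 24.53 and 23.41 TPM in controls versus 26.92 and 25.72 TPM in KO+OE. Both KO+OE values of ITGA5 were above both control values, but the log2 fold change of 0.13 had a 95% confidence interval from -0.03 to 0.29 and an adjusted p of 0.931 in limma. ITGA5 was above ITGA3 in each library, although the ranges of the 2 genes over all libraries overlap.

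The α chains that recognise RGD motifs or collagen were otherwise scarce. ITGAV, which lies at chr2:186590056-186680901, was at 1.25 and 0.59 TPM across control libraries against 0.50 and 0.48 TPM across KO+OE libraries. It fell short of the 1 TPM mean needed for the test. Control replicate 1 was its highest library by a wide margin, and ITGB5, whose known α partner is αV, was 123 to 305 times as high. Of the collagen-binding α chains, ITGA10 was at 2.48 and 8.16 TPM in controls versus 5.51 and 4.10 TPM in KO+OE, so the largest and the smallest value both came from control. ITGA1, ITGA2 and ITGA11 were under 1 TPM in every library. ITGA2B, the platelet α chain, was at 6.58 and 7.89 TPM across control libraries against 6.52 and 7.08 TPM across KO+OE libraries, whereas its partner ITGB3 was at 0.02 to 0.10 TPM. The leukocyte chains ITGAE and ITGAM also exceeded 1 TPM while their partners did not: ITGB7, the partner of αE, was at 0.00 to 0.22 TPM, and ITGB2, the partner of αM, at 0.23 to 0.80 TPM. The 5 leukocyte α chains summed to 11.66 and 10.47 TPM in controls versus 15.45 and 14.48 TPM in KO+OE, mostly from ITGAE. The 4 RGD-binding α chains summed to 32.36 and 31.89 TPM in controls versus 33.95 and 33.28 TPM in KO+OE, mostly from ITGA5. The leukocyte and RGD sums were thus higher in KO+OE without overlap, and were not tested as sums. For comparison, 34.1% of all single genes tested had groups that did not overlap.

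Laminin RNA was concentrated in 3 chains. LAMB2 (β2) was at 95.41 and 97.99 TPM in controls versus 111.96 and 91.53 TPM in KO+OE. LAMA5 (α5) was at 83.82 and 87.90 TPM across control libraries against 93.10 and 89.44 TPM across KO+OE libraries. LAMC1 (γ1) was at 27.37 and 27.38 TPM in controls versus 26.80 and 27.55 TPM in KO+OE. These are the chains of laminin-α5β2γ1, and together they made up 80.8 to 81.1% of laminin RNA in every library. Within the α chains LAMA5 held 83.6 to 86.5%, and within the β chains LAMB2 held 92.1 to 93.3%. LAMB1, the β chain of the α5β1γ1 form, was at 6.73 and 7.61 TPM across control libraries against 8.63 and 7.68 TPM across KO+OE libraries, so that LAMB2 was 11.9 to 14.2 times as high. LAMA1, the α chain of the first embryonic laminin, was at 13.17, 12.44, 13.44 and 12.40 TPM.

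The γ chains were less one-sided. LAMC3 was at 20.50 and 21.15 TPM in controls versus 21.64 and 20.68 TPM in KO+OE, which is 38.2 to 39.5% of γ chain RNA against 49.0 to 51.9% for LAMC1. LAMA4, an α chain of vessel walls, was the most variable laminin above 1 TPM, at 2.79 and 1.81 TPM across control libraries against 4.04 and 1.28 TPM across KO+OE libraries. Of all 12319 genes tested, 5609 had a positive log2 fold change between groups. Among the 8 laminins tested 7 did, with a median of 0.06. None of these 8 passed the test, and the median fell to 0.00 when KO+OE replicate 1 was left out and was 0.12 when KO+OE replicate 2 was. LAMA5 (log2 fold change 0.09, 95% confidence interval -0.03 to 0.21) and LAMB1 (0.16, -0.13 to 0.46) were the tested laminins whose groups did not overlap. They are 2 of 8, while 34.1% of all genes tested had groups that did not overlap.

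**Figure D2:**
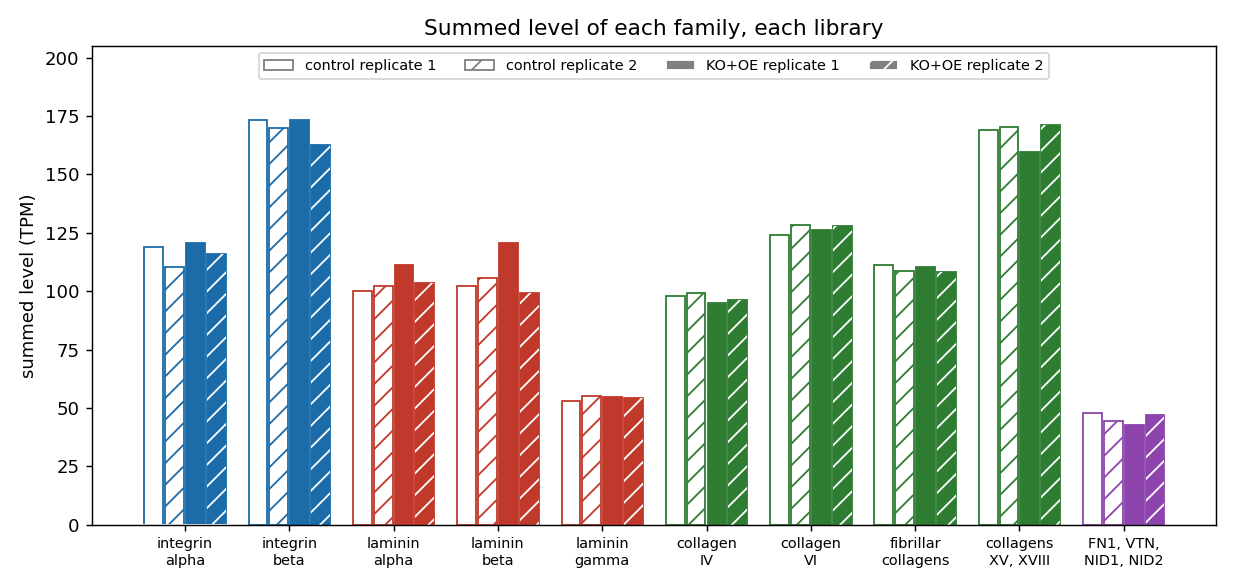
Summed level in TPM of the members of each family, with 1 bar a library: open bars for control, filled bars for KO+OE, hatching for replicate 2. The bars of the 2 groups overlap in all families drawn but 2, with the laminin α sums higher in KO+OE (111.41 and 103.45 TPM against 99.99 and 102.31 TPM) and the type IV collagen sums lower (94.75 and 96.08 TPM against 97.93 and 99.42 TPM).

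Of the proteins that tie these networks together, FN1, fibronectin, was at 29.66 and 25.46 TPM in controls versus 25.83 and 28.85 TPM in KO+OE. NID1, nidogen-1, was at 12.99 and 14.45 TPM across control libraries against 14.04 and 14.84 TPM across KO+OE libraries. NID2, nidogen-2, was lower, at 4.61 and 4.0 TPM in controls versus 2.70 and 3.23 TPM in KO+OE. Only NID2 of these 3 had groups that did not overlap, and the ratio of NID1 to NID2 was 2.82 and 3.61 in control and 5.20 and 4.59 in KO+OE. VTN, vitronectin, a plasma protein made in the liver, was at 0.57, 0.32, 0.23 and 0.28 TPM and was not tested.

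The collagens were led by a basement membrane chain. COL18A1, which carries the endostatin fragment, was the highest member, at 168.82 and 170.20 TPM across control libraries against 159.55 and 171.25 TPM across KO+OE libraries. It held 23.9 to 24.8% of all collagen RNA, and its relative COL15A1 was at 0.04 to 0.06 TPM. Of the exon bases of COL18A1, 18.5% are shared with SLC19A1 on the opposite strand. SLC19A1 was at 26.60 to 29.14 TPM, and its part in the COL18A1 values was not tested. COL26A1 was at 70.55 and 72.58 TPM in controls versus 69.94 and 69.77 TPM in KO+OE. The sum with COL28A1, in the same group of other collagens, was likewise lower in both KO+OE libraries. COL23A1, a transmembrane collagen, was at 22.22 and 23.94 TPM across control libraries against 22.71 and 23.81 TPM across KO+OE libraries. COL18A1 alone thus exceeded the summed RNA of the 11 fibrillar chains, 108 to 111 TPM.

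Type VI collagen, which makes beaded filaments around cells, was present in its α1 and α2 chains. COL6A1 was at 64.69 and 66.38 TPM in controls versus 69.71 and 67.75 TPM in KO+OE. COL6A2 was at 57.44 and 60.38 TPM across control libraries against 55.06 and 58.84 TPM across KO+OE libraries. COL6A3, the third chain of the common molecule, was at 1.80, 1.73, 1.63 and 1.49 TPM, so that COL6A2 was 31.9 to 39.5 times as high. The α1 and α2 chains were within 1.10 to 1.27 times of each other. COL6A5 and COL6A6 did not exceed 0.01 TPM.

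Fibrillar collagen RNA was mostly from type I and type II genes. COL1A1 was at 55.60 and 54.18 TPM in controls versus 54.30 and 53.86 TPM in KO+OE. COL1A2 was at 12.99 and 13.57 TPM across control libraries against 14.47 and 13.21 TPM across KO+OE libraries. COL2A1, the cartilage collagen, was at 28.29 and 25.87 TPM in controls versus 26.11 and 27.38 TPM in KO+OE. COL1A1 was 3.75 to 4.28 times COL1A2, while COL3A1, which is made beside type I in most connective tissue, was listed at 0 in 3 libraries and at 0.02 TPM in the other. COL9A3, a chain of the type IX collagen that coats cartilage fibrils, was at 60.43 and 58.45 TPM across control libraries against 57.33 and 64.43 TPM across KO+OE libraries. It too exceeded the chains it assembles with, by 10.98 to 13.9 times for COL9A1 and by 31.0 to 35.9 times for COL9A2. The other collagens above 1 TPM, COL16A1, COL5A3, COL7A1, COL5A1, COL22A1, COL8A2, COL13A1, COL27A1, COL5A2 and COL11A2, had means from 5.63 TPM down to 1.34 TPM in that order.

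Members with transcripts of higher GC content tended to have higher levels. Over the 86 members with a role, the Spearman correlation of mean TPM with the GC content of the canonical transcript (GENCODE 44) was 0.56, and with its length -0.19. Of the 14 members under 45% GC, 12 were under 1 TPM and the median was 0.26 TPM. Of the 35 from 45 to 55%, 17 were under 1 TPM and the median was 1.44 TPM, and of the 37 at 55% or more, 9 were under 1 TPM and the median was 5.60 TPM. ITGB1 (39.5% GC), ITGA6 (42.5%) and ITGAV (38.3%) were among the members of lowest GC, and ITGB5 (54.6%), LAMA5 (66.4%), LAMB2 (60.3%) and COL18A1 (67.2%) were higher. In 13 of 18 pairs of related chains examined, chosen with their levels known, the chain of higher GC content had the higher level, among them COL4A2 over COL4A1, COL1A1 over COL1A2 and ITGB5 over ITGB1. LAMC1 (48.8%) over LAMC3 (62.5%) was an exception. All members share the same 4 libraries, so no test was made. Over all 12147 tested genes with a transcript the correlation was 0.27, and over the 48 tested members 0.33. Whether library preparation had a part in the order of levels was not tested.

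**Figure D3:**
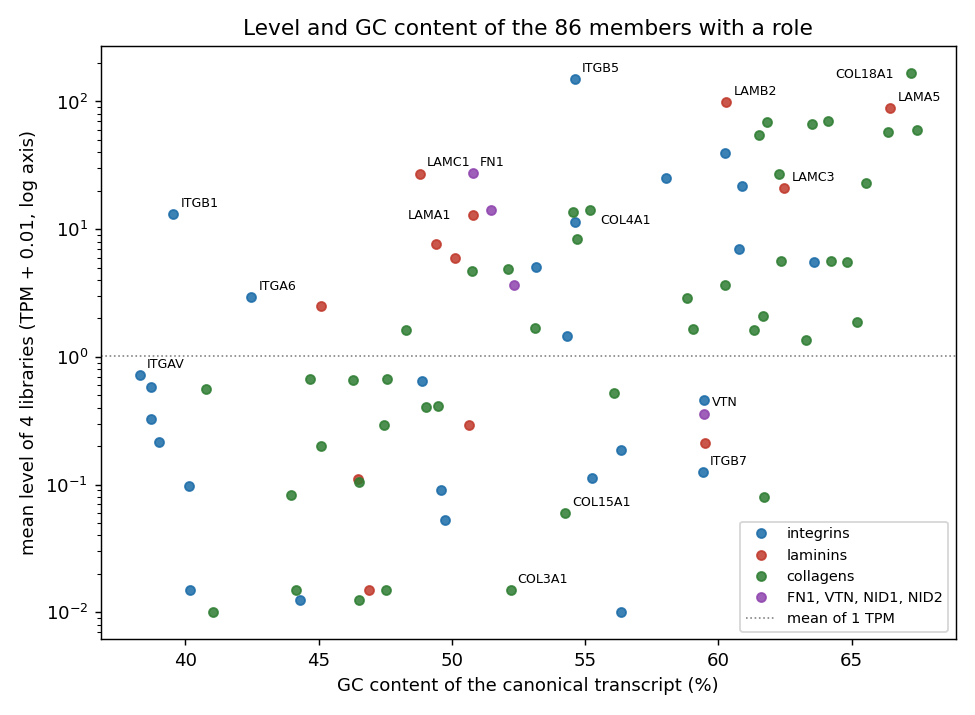
Mean level of 4 libraries (TPM plus 0.01, log axis) against the GC content of the canonical transcript in percent, 1 point a member, coloured by family, with the dotted line at a mean of 1 TPM. Most points under 45% GC lie below the line, while ITGB1 is the one member there above 10 TPM.

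The comparison of KO+OE with control asks whether cells that carry the edit and re-express tagged CFIm25 have the adhesion and matrix RNA of control cells. It was tested with limma on log2(TPM + 1) over the 12319 genes whose mean reached 1 TPM, and p-values were adjusted over all of them. Because the labels do not say whether the libraries of a group came from separate cultures, the p-values measure the spread between these libraries, which may be technical. No member was called at an adjusted p under 0.05, against 1 of all 12319 genes tested, or 0.00812%. The lowest adjusted p of a member was 0.928. For a single gene, the smallest p that an exact two-sided permutation test of 2 against 2 libraries allows is 0.333.

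At an unadjusted p under 0.05, 2 of 49 members passed, 1 in each direction. Over all genes tested 656 did so, or 5.33%, with 2.26% higher and 3.06% lower in KO+OE, so the members' count is no more than that background. The groups did not overlap in 13 of 49 members, 8 higher and 5 lower in KO+OE, while 34.1% of all genes tested had groups that did not overlap. Fold changes were positive for 27 members and negative for 22, against 5609 and 6710 of all genes tested. Their median log2 fold change was 0.01, against -0.01 over all genes tested. By family the median was 0.03 for integrins, 0.06 for laminins and -0.01 for the glycoproteins. The collagen median was -0.01 and turned to 0.0012 under quantile normalization and to 0.0072 with no filter.

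The intervals set limits on what these libraries could have missed. For 47 of the 49 members the 95% confidence interval lay within a 2-fold change of TPM + 1 either way. For members of low level this allows a wider change of TPM itself. The exceptions were ITGA10, with a log2 fold change of 0.03 and an interval from -1.17 to 1.23, and LAMA4, with 0.05 and an interval from -1.002 to 1.11. For the main chains the intervals were narrow: -0.16 to 0.08 for ITGB5, -0.03 to 0.21 for LAMA5, -0.19 to 0.32 for LAMB2, -0.16 to 0.14 for LAMC1 and -0.15 to 0.08 for COL18A1. Among the 24 members at 10 TPM or more, the median absolute log2 difference was 0.06 between the control replicates, 0.08 between the KO+OE replicates and 0.04 between the group means. Among the 25 members from 1 to 10 TPM it was 0.21, 0.14 and 0.11. A difference of means is expected to be smaller than one of single libraries, so these values are given side by side only.

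**Figure D4:**
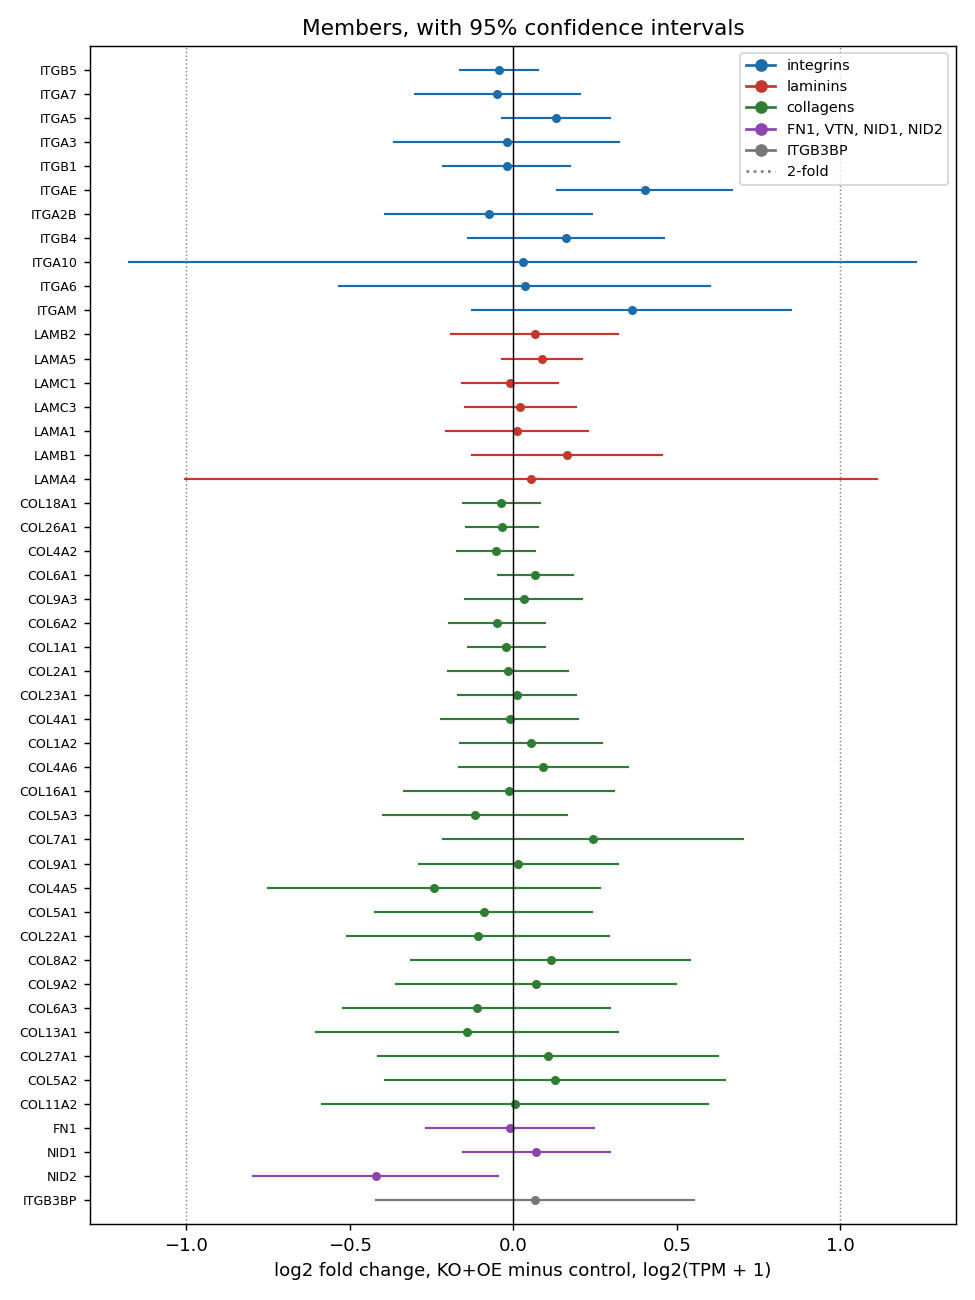
Log2 fold change of KO+OE minus control on log2(TPM + 1) for 48 of the 49 members tested, ordered by family and level. Bars give the 95% confidence interval, and dotted lines mark a 2-fold change of TPM + 1. The intervals of all members shown but ITGAE and NID2 include 0.

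ITGAE, the αE chain by which intraepithelial lymphocytes bind E-cadherin, was the member with the lowest p. It was at 10.18 and 9.02 TPM in control (9.60 ± 0.82, SD, n = 2) and at 13.74 and 12.26 TPM in KO+OE (13.0 ± 1.05, SD, n = 2). Both KO+OE libraries were above both control libraries. The log2 fold change was 0.40 (SE 0.10, 95% confidence interval 0.13 to 0.67), with an unadjusted p of 0.012 and an adjusted p of 0.928 in limma. The unadjusted p was 0.083 without KO+OE replicate 1 and 0.068 without control replicate 2, and the log2 fold change stayed between 0.32 and 0.48 whichever library was left out. The gene (ENSG00000083457) lies at chr17:3714628-3801188, and 7.65% of its exon bases are shared with genes on the opposite strand, among them HASPIN, a histone kinase gene. Whether the authors' counting used strand is not stated. HASPIN was at 6.83 and 6.32 TPM in controls versus 6.18 and 7.90 TPM in KO+OE, with overlapping groups and a log2 fold change of 0.08, and its part in the ITGAE values was not tested. The leukocyte markers summed to 3.80 and 5.20 TPM across control libraries against 4.16 and 5.47 TPM across KO+OE libraries, with PTPRC at 0.

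NID2 was the other member past an unadjusted p of 0.05, and it was lower in KO+OE. The control libraries averaged 4.31 ± 0.43 TPM (SD, n = 2) and the KO+OE libraries 2.97 ± 0.37 TPM (SD, n = 2). The log2 fold change was -0.42 (SE 0.15, 95% confidence interval -0.80 to -0.05), with an unadjusted p of 0.034 and an adjusted p of 0.928 in limma. The unadjusted p exceeded 0.05 without any one of the 4 libraries, from 0.054 without KO+OE replicate 2 to 0.149 without control replicate 1. The gene (ENSG00000087303) lies at chr14:52004809-52069059, and 30.7% of its exon bases are shared with RTRAF, an RNA-binding protein gene on the opposite strand. RTRAF was at 59.17 and 59.49 TPM in controls versus 61.54 and 54.20 TPM in KO+OE, with overlapping groups and a log2 fold change of -0.04. Reads of the shared bases cannot be assigned without strand, and their part in the NID2 values was not tested.

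The other tested members whose groups did not overlap differed by less on the log2(TPM + 1) scale. Higher in KO+OE in both libraries were LAMA5, COL6A1, ITGA5, COL4A6, LAMB1, ITGB4 and ITGAM, with log2 fold changes from 0.07 for COL6A1 to 0.36 for ITGAM. ITGAM, the αM chain of macrophages and neutrophils, was at 1.14 and 1.11 TPM across control libraries against 1.46 and 2.03 TPM across KO+OE libraries. By mean TPM its ratio of 1.55 was wider than that of ITGAE, 1.35. Lower in both were COL26A1, COL4A2, COL5A3 and COL6A3, with log2 fold changes from -0.03 for COL26A1 to -0.12 for COL5A3. Each of these had a 95% confidence interval that included 0.

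The 38 members under a mean of 1 TPM were not tested, and the read depth behind their values is unknown. The highest in each family were ITGAV among α chains, ITGB8 (0.40, 0.85, 0.63 and 0.39 TPM) among β chains, LAMA3 among laminins, COL11A1 and COL14A1 among collagens, and VTN. In 13 of them the groups did not overlap. Of the 28 with a value above 0 in every library 12 were so, and of all such genes under 1 TPM 31.1%. ITGAV, VTN, COL4A3, ITGAX, ITGB7 and ITGAL were lower in KO+OE, and ITGA9, COL25A1, ITGB2, LAMA3, ITGA11, COL21A1 and COL20A1 were higher. LAMA3 was at 0.12 and 0.06 TPM in controls versus 0.76 and 0.19 TPM in KO+OE. A fit without the 1 TPM filter covered 85 members, and in it none of the 36 of these that were fitted reached an unadjusted p of 0.05. COL19A1 and ITGAD, at 0 throughout, could not be fitted.

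Genes that act with the members gave few calls too. Of 32 genes for the integrin adhesion complex, 27 were tested and none passed at an adjusted p under 0.05. An unadjusted p under 0.05 was found for 2, both higher. Of all genes tested, 5.33% had such a p, with 2.26% higher in KO+OE. ZYX, the focal adhesion protein zyxin, led the list at 280.08 and 279.29 TPM across control libraries against 272.20 and 284.60 TPM across KO+OE libraries. PXN, the scaffold paxillin, was at 113.33 and 113.55 TPM in controls versus 120.98 and 122.39 TPM in KO+OE, so its log2 fold change came to 0.10. KANK2, which binds talin, was at 10.34 and 9.61 TPM across control libraries against 11.58 and 12.66 TPM across KO+OE libraries, so its log2 fold change came to 0.26. For both genes the KO+OE libraries were above the control libraries, and the adjusted p was 0.928 in limma. The groups did not overlap in 11 of the 27 genes tested, 10 higher and 1 lower in KO+OE. Of all 12319 genes tested 34.1% were so, 1786 higher and 2418 lower. The genes of this list had a median log2 fold change of 0.04, against -0.01 over all genes tested.

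Basement membrane partners, collagen enzymes and matrix turnover genes gave similar counts. Of 23 partners, 17 were tested and none had an unadjusted p under 0.05. They were led by SPARC, a collagen-binding protein, at 227.90 and 231.25 TPM in controls versus 222.69 and 217.85 TPM in KO+OE. HSPG2, perlecan, was at 84.66 to 91.62 TPM, and AGRN, agrin, at 105.77 to 109.32 TPM. Of 31 genes for the folding, hydroxylation and cross-linking of collagen, 24 were tested and none had an unadjusted p under 0.05. PPIB, the prolyl isomerase cyclophilin B, was at 631.69 and 640.95 TPM across control libraries against 653.27 and 630.62 TPM across KO+OE libraries. SERPINH1, the collagen chaperone HSP47, was at 485 to 491 TPM, whereas the cross-linking enzyme LOX was at 0.07 to 0.19 TPM. Of 25 proteases and inhibitors, 19 were tested and 1 had an unadjusted p under 0.05, against 5.33% of all genes tested. That gene was TIMP1, an inhibitor of matrix metalloproteinases. It was at 153.55 and 150.40 TPM in controls versus 161.72 and 162.46 TPM in KO+OE, with a log2 fold change of 0.09. The list medians were -0.01 for the partners, 0.00 for the collagen enzymes and -0.05 for matrix turnover.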

How the data were processed

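Poly(A)+ RNA of 2 control and 2 KO+OE libraries of H9 cells was sequenced in 150-base pairs. The submitters' processing notes name HISAT2, featureCounts of Subread, DESeq2 and the hg38 build, with no versions. The deposited table gives 1 value per gene and library, rounded to 2 decimals. Its header names no unit, and the authors' values were taken as TPM because they are not whole and each column sums to 986853 to 987078. The transcript lengths behind them, the use of strand and the read depth are not given in the sources used here, so no interval for counting error can be made. The number limiting precision is that of the libraries. Every value column was matched to a sample.

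Genes whose mean reached 1 TPM were tested in limma 3.58.1 (R 4.3.3; lmFit, then eBayes with the trend option, two-sided) on log2(TPM + 1), with group as the only term and Benjamini-Hochberg adjustment over all 12319 genes. Since this scale has a pseudocount, it understates the change of low genes. DESeq2, which the study names, needs counts and was not run. The script was tested on simulated data. Members and partner lists were chosen with earlier results of these data known. Named genes are NUDT21, the 4 glycoproteins, every member at 10 TPM or more or with an unadjusted p under 0.05, lower members by level, counts and lack of overlap, and the highest gene and those with an unadjusted p under 0.05 of each partner list. HSPG2, AGRN, SERPINH1 and LOX were added after their values were seen, as were ratios between chains. Gene positions and promoters are from RefSeq GRCh38.p14, and GC content, length and shared exon bases from GENCODE 44 annotation on GRCh37. Promoter windows were found for 63 members. Alternatives were another pseudocount (0.1 or 5), quantile normalization or scaling to median ratios, a filter at 5 TPM or none, eBayes without the trend option, replicate number as a blocking term, and leaving out each library. Figures were drawn with matplotlib 3.10.9. One member is counted but not reported here by name.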

Additional observations from a re-analysis of the deposited data

How the results depend on the processing

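No member was called at an adjusted p under 0.05 under any alternative tried, and the lowest adjusted p of a member over all of them was 0.852. The single call over all genes became 0 with a pseudocount of 0.1 or 5, with no filter, with a filter at 5 TPM, under quantile normalization and with the replicate number as a block, and ranged from 0 to 1 when a library was left out. The 2 members at an unadjusted p under 0.05 became 1 (ITGAE) with a filter at 5 TPM, which leaves out NID2, and 1 (ITGAE) with the replicate block, where the p of NID2 was 0.060. Leaving out each library in turn gave 1 to 2 such members, and these were not always the ones named: ITGAE and ITGA10 without control replicate 1, ITGA10 without control replicate 2, ITGAM without KO+OE replicate 1, and LAMB2 and ITGAE without KO+OE replicate 2. These fits leave a group with 1 library, which is assumed to vary like the other group. The median log2 fold change of the integrins turned to -0.016 with a pseudocount of 5 and to -0.019 with a filter at 5 TPM, and was 0.14 without control replicate 1.

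Replicate numbers are not said to mark a shared culture or day. The deviations of the libraries numbered 1 correlated at -0.049 across genes. A single correlation across genes cannot show whether libraries of the same number shared a culture or day.

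Several small fold changes changed sign, and the cause was not tested. Rescaling by median ratios gave 0.00076 for COL4A1, 0.0031 for FN1, 0.0021 for LAMC1 and 0.0058 for ZYX, and quantile normalization gave 0.0036, 0.0039, 0.0054 and 0.013. ITGA10 was at -0.021 with a pseudocount of 5. With a library left out, the sign turned in 21 of 34 named genes. Their log2 fold changes ranged from -0.087 to 0.015 for COL18A1, from -0.0068 to 0.12 for COL1A2, from -0.040 to 0.063 for COL23A1, from -0.079 to 0.046 for COL2A1, from -0.059 to 0.037 for COL4A1, from -0.051 to 0.11 for COL9A3, from -0.12 to 0.097 for FN1, from -0.67 to 0.73 for ITGA10, from -0.17 to 0.14 for ITGA3, from -0.16 to 0.060 for ITGA7, from -0.044 to 0.0041 for ITGB1, from -0.091 to 0.0055 for ITGB5, from -0.042 to 0.065 for LAMA1, from -0.52 to 0.63 for LAMA4, from -0.078 to 0.21 for LAMB2, from -0.030 to 0.0089 for LAMC1, from -0.0095 to 0.053 for LAMC3, from -0.0014 to 0.14 for NID1, from -0.012 to 0.066 for NUDT21, from -0.013 to 0.038 for PPIB, and from -0.039 to 0.025 for ZYX. The other 13 kept their sign.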
